A study of Sus scrofa with 36 samples.

Results

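The response of the thyroid gland to heat was described in Creole (CR) pigs, by setting the 6 pigs labelled CR at 30 °C (CR 30) against the 6 labelled CR at 24 °C (CR 24). These 12 pigs were taken by their titles from a series of 36, and all 46097 probes of the deposited expression table were used. The remaining 24 pigs were Large White (LW) or crosses named F1, also at both temperatures, and served to estimate the spread between pigs and to test whether the breeds differed. The pigs were castrated growing males reared in Guadeloupe. The CR 24 pigs were killed before the heat and the CR 30 pigs after up to 5 days of it, so ambient temperature and time of slaughter cannot be told apart. The protocol text of the samples gives 5 days, and the methods also a shorter exposure for some pigs. The temperature labels give 30 °C for the hot groups, whereas the protocol text of the same samples gives 32 °C. The pigs of a breed came from a few litters, each spread over pens of both temperatures. Each pen held several pigs of a breed and was slaughtered at a single temperature, so pen and day of slaughter lie within temperature. The labels used here do not tie a pig to its litter, pen or day of slaughter. The fit therefore treats littermates and pen mates as independent, and p-values measure only the spread between these pigs. They leave out any spread between pens or days and may be too small. Each pig gave 1 piece of thyroid, from which whole-tissue RNA was hybridised to 1 single-colour porcine array. In such tissue RNA, fewer cells of a type and less RNA per cell cannot be told apart.

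The thyroid gland consists of follicles, whose epithelial cells trap iodide, make thyroglobulin and release the hormones that set the metabolic rate. Between the follicles lie C cells, vessels, connective tissue and immune cells. Most follicular cells of an adult gland are at rest, whereas these pigs were still growing. Cells that do divide switch on genes in a fixed order. Those for DNA synthesis come first, and then those for building the mitotic spindle, chromosome segregation and the splitting of the cell.

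In CR 30 thyroids, 164 probes were lower and 9 were higher than in CR 24 thyroids at an adjusted p under 0.05 (limma, 6 against 6 pigs). Among the gene lists used, that of mitosis held the most falls. On each gene's called probe with the largest fall, CDK1, TOP2A, CENPF, KIF23, TPX2 and CCNB1 changed by -1.80 to -1.43 on the log2 scale. There they were 3.48-fold to 2.70-fold lower, and other probes of CENPF and KIF23 fell less. BPI, which encodes an antibacterial granule protein, had the largest change of the named genes and fell by 2.82 on that scale. No gene of hormone synthesis and no HSP70 family gene passed the test. None of the 9 probes that rose carried a gene name.

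The 173 probes called were 0.375% of those tested, the 164 lower ones 0.356% and the 9 higher ones 0.0195%. At an unadjusted p under 0.05 there were 2677 probes (5.81%), of which 1410 (3.06%) were lower. Among the 164 probes, all 6 CR 30 pigs lay below the CR 24 mean on 162, and the groups did not overlap on 134. Over all probes 212 (0.46%) did not overlap in that direction. The 164 were chosen on their change in these same pigs, so their counts follow largely from the choice. The 12 arrays detected between 72.8% and 80.3% of their probes above background and had no saturated spot. Each correlated on average with the other 5 of its group at 0.988 to 0.992, and with the arrays of the other group at 0.987 to 0.991.

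The calls covered 101 probes with a gene name, belonging to 60 names, of which KIAA0101 is an older name of PCLAF. All 60 were lower in CR 30. Of the 36 genes with more than 1 probe, every probe was lower for 32 and every probe was called for 19. With each gene represented by its brightest probe, 54 of 11399 named genes were called lower (0.474%) and none higher.

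Since the arrays hold 60-base probes placed independently, sequences show where calls rest on the same stretch of a transcript and where on separate ones. They also identify probes that carry no name. Probes are written 5′ to 3′ as the array files give them. The first set is that of BPI, with 2 probes named for it and A_72_P095061, which the array files describe as porcine BPI without a gene symbol. The 3 shared no stretch of 20 bases.
BPI A_72_P213667: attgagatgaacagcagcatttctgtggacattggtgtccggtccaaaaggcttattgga
BPI A_72_P685060: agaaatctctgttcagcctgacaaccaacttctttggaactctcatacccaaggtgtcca
A_72_P095061: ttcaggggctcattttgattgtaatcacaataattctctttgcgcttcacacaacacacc

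Overlapping probes are the second set. Of the called probes, 25 pairs with another probe of the table shared 26 to 60 bases on the same strand. Both probes were called in 19 pairs, both changes had the same sign in all 25, and the changes of a pair differed by at most 0.22 (log2). In 6 cases an unnamed called probe shared its stretch with a named one. The pair of ESPL1, which encodes separase, the protease that frees sister chromatids, was identical. Those of TCF19, which encodes a transcription factor, overlapped only in part. Capitals mark the shared bases.
ESPL1 O239: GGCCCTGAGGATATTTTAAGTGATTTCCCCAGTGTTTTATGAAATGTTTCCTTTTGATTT
A_72_P305229 (unnamed): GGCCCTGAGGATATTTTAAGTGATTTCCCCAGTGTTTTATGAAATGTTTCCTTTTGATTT
TCF19 A_72_P123721: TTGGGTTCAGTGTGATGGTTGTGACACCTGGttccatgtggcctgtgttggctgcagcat
TCF19 A_72_P498859: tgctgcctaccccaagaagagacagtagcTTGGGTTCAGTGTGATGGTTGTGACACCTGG
The ESPL1 pair changed by -1.32 and -1.34 (limma adjusted p = 0.0032 and 0.00338) and the TCF19 pair by -1.002 and -1.22 (limma adjusted p = 0.00142 and 0.00124).

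The last set holds the 9 probes called higher, for which the sequence is the main identity. AATAAA, the usual signal for polyadenylation, is in capitals. Searched on the printed strand only, it was found in 3 of these 9 probes, in 16 of the 164 called lower (9.76%) and in 11.1% of all probes. Last come 2 unnamed probes that fell, chosen after their values were seen as the largest falls among those with an Agilent identifier and no description as BPI.
A_72_P345793: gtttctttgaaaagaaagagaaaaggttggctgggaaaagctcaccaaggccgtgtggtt
OTTSUST00000000652: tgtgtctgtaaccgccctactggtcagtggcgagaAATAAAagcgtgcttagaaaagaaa
A_72_P228067: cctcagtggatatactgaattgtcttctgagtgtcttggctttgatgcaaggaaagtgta
A_72_P383923: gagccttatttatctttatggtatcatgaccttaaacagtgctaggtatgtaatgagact
A_72_P421804: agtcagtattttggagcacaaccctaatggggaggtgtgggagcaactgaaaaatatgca
A_72_P112916: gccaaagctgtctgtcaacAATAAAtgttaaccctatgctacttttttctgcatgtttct
A_72_P252702: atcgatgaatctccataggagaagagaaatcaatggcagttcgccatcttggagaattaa
A_72_P370343: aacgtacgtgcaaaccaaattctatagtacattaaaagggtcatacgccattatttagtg
A_72_P301714: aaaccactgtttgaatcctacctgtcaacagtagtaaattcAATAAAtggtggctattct
A_72_P329448 (fell): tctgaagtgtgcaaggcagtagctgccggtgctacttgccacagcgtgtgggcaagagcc
A_72_P385698 (fell): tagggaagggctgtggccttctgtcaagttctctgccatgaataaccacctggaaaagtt

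Mitosis and its preparation were covered by a list of 39 measured genes, chosen, like all lists here, with earlier results of these data known. Of these, 20 were called lower, none was called higher and 36 had a lower mean in CR 30. The median change was -0.58, against 0.01 over all probes. Among the 11399 named genes, 54 (0.474%) were called lower and 5336 had a lower mean. The mean log2 level of the list ran from 8.39 to 8.84 in CR 24 (median 8.63) and from 7.59 to 8.18 in CR 30 (median 8.03), so that every CR 30 pig lay below every CR 24 pig. The 20 called genes changed by -1.80 to -0.53, and the 19 others lay between -0.59 and 0.13.

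CDK1 encodes the kinase that drives cells into mitosis. Its log2 level was 9.34 at the lowest, 9.58 at the median and 10.14 at the highest in CR 24, and 6.90, 8.11 and 8.44 in CR 30. The groups did not overlap, and the change was -1.80 ± 0.283 (SE, n = 6 per group, limma adjusted p = 0.00124). CCNB1, the cyclin that activates this kinase, spanned 8.91 to 9.62 in CR 24 (median 9.21) and 7.07 to 8.48 in CR 30 (median 7.88), again without overlap. It fell by 1.43 ± 0.248 (limma adjusted p = 0.00202). CCNB2, a second mitotic cyclin, changed by -0.92 and PLK1, a kinase of mitotic entry, by -0.58. For CCNB2 this was the only 1 of its 2 probes called, and the other changed by -0.36 (limma adjusted p = 0.505). An unnamed probe with the same sequence as that other probe was called, with a change of -0.48 (limma adjusted p = 0.0445).

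TOP2A encodes the topoisomerase that untangles sister chromatids. It ranged from 9.52 to 10.76 in CR 24 (median 10.19) and from 7.06 to 9.37 in CR 30 (median 8.60), and fell by 1.79 ± 0.318 (limma adjusted p = 0.00261). CENPF, a kinetochore protein, ranged from 8.72 to 9.71 (median 9.30) and from 6.48 to 8.34 (median 7.67), and fell by 1.73 ± 0.284 (limma adjusted p = 0.00138). Neither gene had overlapping groups on the probe given. CENPF was called on all 4 of its probes, and the others changed by -1.08, -0.89 and -0.86. TPX2, which nucleates spindle microtubules, ranged from 9.34 to 9.92 in CR 24 (median 9.66) and from 7.02 to 8.77 in CR 30 (median 8.22). Its change was -1.59 ± 0.265 (limma adjusted p = 0.00142). SPAG5, another spindle protein, lay between 8.05 and 8.70 in CR 24 (median 8.43) and between 5.63 and 7.87 in CR 30 (median 7.13), without overlap, and fell by 1.499 (limma adjusted p = 0.00624).

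KIF23, a motor of the cleavage furrow, ranged from 7.89 to 8.51 in CR 24 (median 8.01) and from 5.44 to 7.17 in CR 30 (median 6.60), where 5 of 6 arrays were well above background. It fell by 1.67 ± 0.255 (limma adjusted p = 0.00124). Over 11 other ways of processing or fitting the data this change ran from -2.34, with Agilent's background-corrected signals, to -1.36. The other KIF23 probe, also called, changed by -0.79. UBE2C, which hands ubiquitin to the complex that destroys cyclins, ranged from 9.83 to 10.68 (median 10.17) and from 7.48 to 9.46 (median 8.86), and fell by 1.61 ± 0.293 (limma adjusted p = 0.00328). CDCA3, also linked to mitotic entry, ranged from 8.70 to 9.45 (median 9.12) and from 6.41 to 7.97 (median 7.62), and fell by 1.70 (limma adjusted p = 0.00124). In all 3 genes the lowest CR 24 pig was above the highest CR 30 pig. PBK, a kinase of dividing cells, was called on all 4 of its probes and fell by 1.54 on the probe with the largest fall.

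Not every gene of the list moved. MKI67, whose protein marks cycling cells, had a mean of 11.59 in CR 24 and 11.72 in CR 30 (change 0.13 ± 0.0812, limma adjusted p = 0.952), and none of its 3 probes was called. AURKB, a kinase of chromosome attachment, changed by -0.19 and AURKA, a spindle pole kinase, by -0.34, and neither was called on any of 3 probes. BUB1, a spindle checkpoint kinase, changed by 0.08 with a wide SE of 0.314. All 4 genes were well above background on all 12 arrays.

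**Figure D1:**
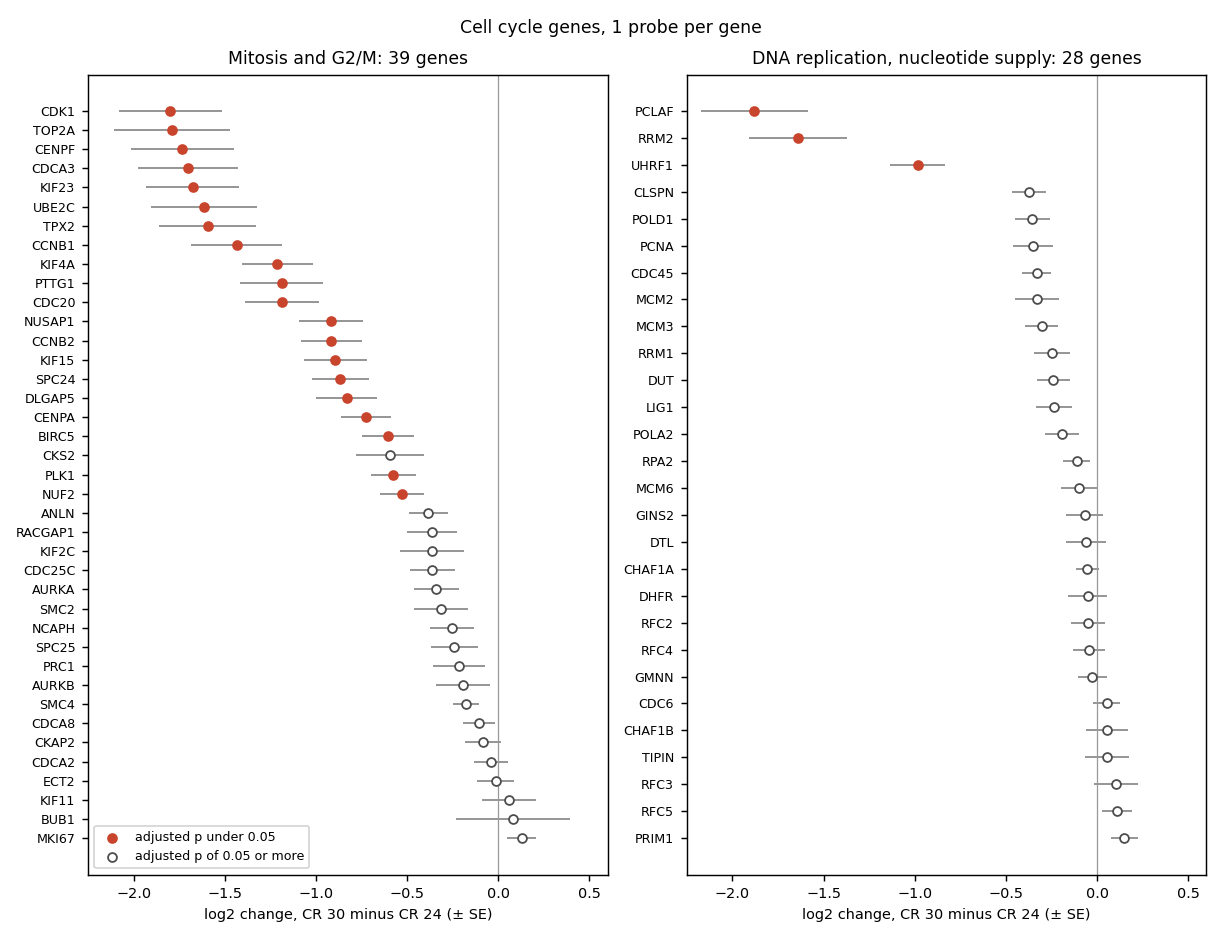
Change in log2 level (CR 30 minus CR 24, horizontal axis, bars of 1 SE) of each measured gene of the mitosis list (39 genes, left) and of the DNA replication list (28 genes, right), 6 pigs per group. Filled points passed an adjusted p of 0.05 (limma): 20 on the left, down to -1.80 for CDK1, and 3 on the right, while MKI67 at 0.13 lies at the bottom of the left panel.

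The list of DNA replication and nucleotide supply held 28 measured genes. Of these, 3 were called lower and none higher, and 4 had a call on at least 1 of their probes. An unadjusted p under 0.05 was found for 13, and 22 had a lower mean in CR 30, with a median change of -0.10. Among the 11399 named genes, 54 (0.474%) were called lower, 606 had an unadjusted p under 0.05 and 5336 had a lower mean. The mean log2 level of the list ran from 8.74 to 8.88 in CR 24 (median 8.80) and from 8.36 to 8.70 in CR 30 (median 8.57), so that here too every CR 30 pig lay below every CR 24 pig. RRM2 encodes the regulated subunit of the enzyme that makes deoxyribonucleotides. It ranged from 9.21 to 9.82 in CR 24 (median 9.42) and from 6.88 to 8.61 in CR 30 (median 8.05), and fell by 1.64 ± 0.27 (limma adjusted p = 0.00142). PCLAF, which binds the replication clamp PCNA, was called on all 3 of its probes. On the probe of that gene with the largest fall it ranged from 9.22 to 10.28 in CR 24 (median 9.93) and from 6.34 to 8.65 in CR 30 (median 8.35), and fell by 1.94 ± 0.315 (limma adjusted p = 0.00129). UHRF1, which carries DNA methylation over to new strands, ranged from 6.45 to 7.29 (median 6.74) and from 5.34 to 5.99 (median 5.93), and fell by 0.98 ± 0.15 (limma adjusted p = 0.00124). The groups of these 3 genes did not overlap. UHRF1 was dim. Over 11 other ways of processing or fitting the data its change ran from -1.70, with Agilent's background-corrected signals, to -0.68. The replication clamp PCNA itself changed by -0.35 (limma adjusted p = 0.355), and MCM2, MCM3 and MCM6, subunits of the replicative helicase, by -0.33, -0.30 and -0.10, none of them called. The list of 18 G1 cyclins, their kinases and inhibitors had no call and a median of -0.04.

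Further genes of dividing cells were called outside those lists. They included the DNA damage kinases CHEK1 (-0.58) and CHEK2 (-0.39, 2 of its 3 probes called), the repair gene BRCA1 (-0.59), the histone chaperone ASF1B (-0.66), the histone variant H2AFZ (4 of its 5 probes, up to -0.41) and STMN1, which destabilises microtubules (5 of its 7 probes, up to -0.45). TCF19 ranged from 8.54 to 9.86 in CR 24 (median 9.16) and from 6.58 to 8.60 in CR 30 (median 7.91) and fell by 1.48 (limma adjusted p = 0.00268), with 1 CR 30 pig inside the CR 24 range. A few called genes have no place among these. ERN2, a stress sensor of the endoplasmic reticulum, changed by -0.88, ARG1, arginase, by -0.59 (1 of its 4 probes called, all 4 lower), GPR19, an orphan receptor, by -0.55, CELSR1, a cadherin, by -0.49 and TNP2, a nuclear protein of sperm, by -0.29. For TNP2 only that 1 of its 4 probes was called, and the other 3 were higher in CR 30, by 0.18 to 0.22. RNU1-5, a copy of the U1 small nuclear RNA family, whose members have nearly the same sequence, changed by -1.06, and the signal cannot be assigned to 1 copy.

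Unnamed probes made up 63 of the 164 called lower. The array files describe some as thymidine kinase, the Myt1 kinase, ASPM, CENP-E or CDC6, all of the cell cycle. The thymidine kinase probe, A_72_P385698, ranged from 12.04 to 12.76 in CR 24 (median 12.38) and from 9.14 to 11.31 in CR 30 (median 10.99), and fell by 1.82 (limma adjusted p = 0.00142). A probe known only by a sequence record had the largest fall but 1 of all called probes. It ranged from 9.31 to 11.83 in CR 24 (median 10.77) and from 5.70 to 9.65 in CR 30 (median 7.42), with 5 of 6 CR 30 pigs below all CR 24 pigs, and fell by 3.14 ± 0.589 (limma adjusted p = 0.00419). A_72_P329448, described only as an ovary cDNA clone, was bright: it ranged from 13.71 to 14.34 in CR 24 (median 14.16) and from 11.59 to 12.95 in CR 30 (median 11.94). It fell by 1.999 ± 0.331 (limma adjusted p = 0.00142), with no overlap between the groups.

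The pigs did not contribute evenly. CR 30 pig 3 was the lowest of its group on 106 of the 164 probes and CR 30 pig 4 on 35, whereas CR 30 pig 6 was the highest on 104. The median distance from the CR 24 mean over these probes was -1.25 in pig 3, -1.06 in pig 4 and -0.519 in pig 6. In CR 24, pig 6 was the highest on 77 probes and pig 3 the lowest on 66. Without CR 30 pig 3 the calls numbered 127, and without CR 30 pig 6 they numbered 195; 112 probes were called whichever of the 12 pigs was left out. With the 12 CR arrays fitted alone, without the spread of the other breeds, 112 probes were called, and the probes of TOP2A, UBE2C, SPAG5 and TCF19 described above were not among them.

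**Figure D2:**
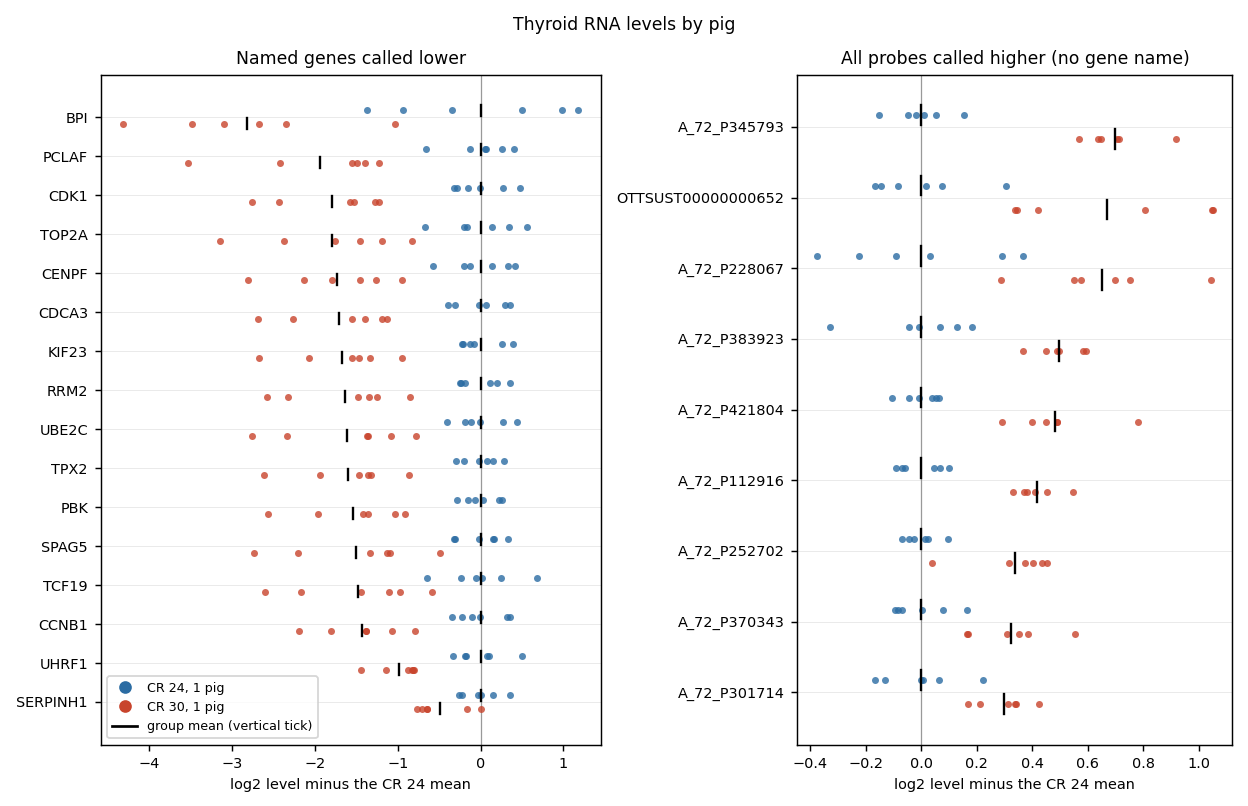
Log2 level of each pig minus the CR 24 mean (horizontal axis) for 16 named genes called lower, 1 probe each (left), and the 9 probes called higher (right). Points are pigs, 6 per group, and black ticks are group means; CDK1 and most of the cell cycle genes have no overlap between the groups, BPI, TCF19 and SERPINH1 do.

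A full slide holds 8 arrays, and the CR pigs were spread over 5 slides. CR 24 and CR 30 numbered 2 and 1 on the first and on the second, 1 and 1 on the third and 1 and 2 on the fourth, and the fifth held only CR 30 pig 6. Within the first 4 slides, in that order, the mitosis list had a median change of -0.79, -0.39, -0.60 and -0.81, and CDK1 changed by -1.71, -1.29, -2.48 and -2.34. The probes called lower were lower within these slides in 99.4% of cases on the second and in 100% on the others. They were chosen on their change in these same pigs, so shares this high follow largely from the choice. The fifth slide, without a CR 24 pig, gave no share. With slide as a fixed block, 189 probes were called, 173 of them lower.

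Among the named genes called, BPI had the largest fall, and its level varied between pigs of a group. On A_72_P213667 its log2 level was 7.91 at the lowest, 9.37 at the median and 10.47 at the highest in CR 24, and 4.98, 6.41 and 8.26 in CR 30. On that probe 5 of 6 CR 30 pigs were below the lowest CR 24 pig, and pig 6 was inside the CR 24 range. The change was -2.82 ± 0.54, a 7.07-fold lower level (limma adjusted p = 0.00499). The separate probe A_72_P685060 ranged from 7.25 to 9.56 in CR 24 (median 8.38) and from 5.23 to 7.32 in CR 30 (median 5.94), and fell by 2.34 (limma adjusted p = 0.00334). A_72_P095061 ranged from 10.105 to 12.38 (median 11.46) and from 5.44 to 10.27 (median 8.08), and fell by 3.33 (limma adjusted p = 0.00529). The CR 30 pig with the lowest BPI was pig 3 and the one with the highest was pig 6 on all 3 probes, as for the cell cycle genes. Within the first 4 slides the change of A_72_P213667 was -3.94, -1.19, -3.97 and -4.06. Over 11 other ways of processing or fitting the data its change ran from -3.74, with Agilent's background-corrected signals, to -2.41. With the 12 CR arrays fitted alone its limma adjusted p was 0.0658.

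Of the 15 measured genes of the neutrophil list, BPI was the only one called, 9 were lower in CR 30, and the median change was -0.13. S100A12 and S100A8, calcium-binding proteins abundant in neutrophils, changed by -0.41 and -0.30, CXCR2, a chemokine receptor, by -0.20, and LYZ, lysozyme, by 0.30, none of them past the test. The mean level of the list lay between 7.89 and 8.61 in CR 24 and between 7.62 and 8.37 in CR 30, with overlap.

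**Figure D3:**
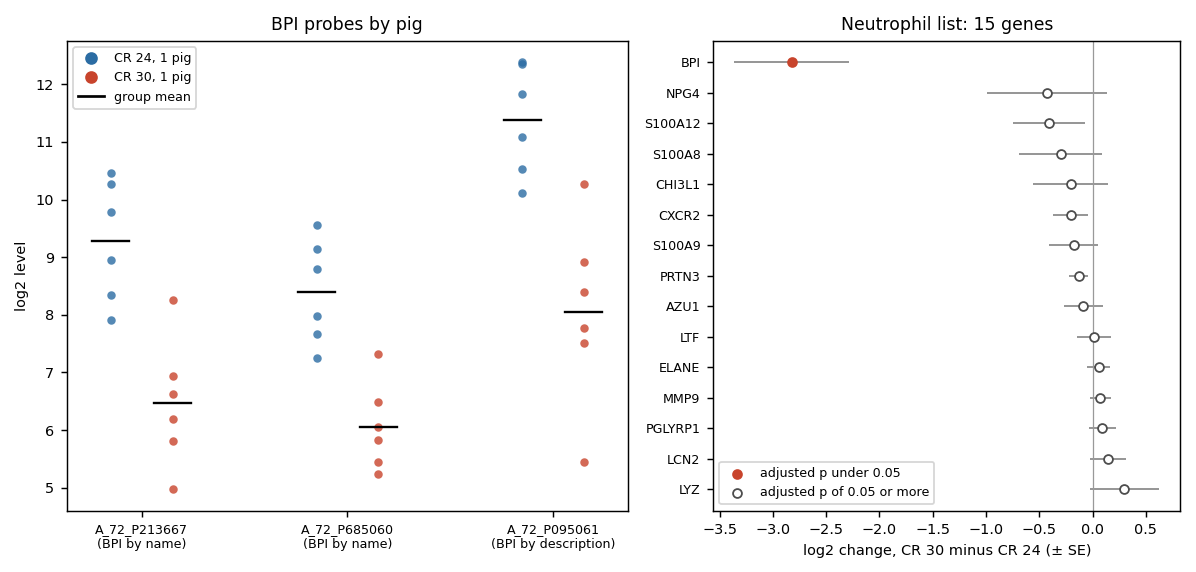
Left, log2 level of 3 BPI probes in each of the 6 CR 24 and 6 CR 30 pigs, with group means as black lines; 5 of 6 CR 30 pigs lie below all CR 24 pigs on each probe. Right, log2 change (± 1 SE) of the 15 measured neutrophil genes, of which BPI (-2.82, filled) passed an adjusted p of 0.05 and LYZ (0.30) is the highest.

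The rising probes changed by 0.30 to 0.70. A_72_P345793, described only as a porcine cDNA, ranged from 6.21 to 6.52 in CR 24 (median 6.36) and from 6.93 to 7.28 in CR 30 (median 7.04). It rose by 0.70 ± 0.134 (limma adjusted p = 0.00505), with no overlap. A_72_P421804, described as similar to a bovine endonuclease reverse transcriptase, an enzyme of mobile elements, ranged from 5.69 to 5.86 (median 5.81) and from 6.08 to 6.57 (median 6.26). It rose by 0.48 ± 0.0784 (limma adjusted p = 0.00124), also with no overlap. OTTSUST00000000652 rose by 0.67 with an adjusted p of 0.0498 in limma. The groups did not overlap on 6 of the 9 probes, and over all probes 53 (0.115%) did not overlap in that direction. These 9 were likewise chosen on their change in the same pigs. The 9 were all well above background on all 12 arrays, and 3 of them were called whichever pig was left out.

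Genes that define the gland were well above background on all 12 arrays and did not pass the test. TG, which encodes thyroglobulin, ranged from 18.30 to 19.09 in CR 24 (median 18.79) and from 18.14 to 19.07 in CR 30 (median 18.52), with a change of -0.17 ± 0.151 (limma adjusted p = 0.999). SLC5A5, the iodide transporter, ranged from 15.27 to 17.30 (median 16.73) and from 15.92 to 17.81 (median 16.76), with a change of 0.27 ± 0.364. TSHR, the receptor of thyrotropin, changed by 0.13 ± 0.146 and PAX8, a transcription factor of follicular cells, by 0.26 ± 0.138. The groups overlapped for all 4. Of 17 measured genes of hormone synthesis none was called by limma, none had an unadjusted p under 0.05, 9 were lower, and the median was -0.01. The 10 follicular cell markers were all well above background on all 12 arrays, with a median change of 0.03.

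Heat shock and protein folding genes, which protect proteins at high temperature, gave 1 call. It came in a list of 24 HSP90, small heat shock protein and chaperonin genes, of which 15 had a higher mean in CR 30 (median 0.03). Among the 11399 named genes, 54 (0.474%) were called lower and 606 had an unadjusted p under 0.05. SERPINH1, a chaperone of collagen, ranged from 14.19 to 14.81 in CR 24 (median 14.43) and from 13.68 to 14.45 in CR 30 (median 13.80), and fell by 0.49 ± 0.111 (limma adjusted p = 0.0318), with 4 of 6 CR 30 pigs below all CR 24 pigs. This call was lost in 8 of the 12 fits that left out 1 pig. Only 1 of the 3 probes of SERPINH1 was called, though all 3 were lower. An unnamed probe of identical sequence changed by -0.44 (limma adjusted p = 0.103). None of the 22 genes of the HSP70, HSP110 and HSP40 families was called (median -0.02), and 3 had an unadjusted p under 0.05. HSPA8, the constitutive cytosolic HSP70, ranged from 15.04 to 15.44 in CR 24 (median 15.32) and from 14.46 to 15.40 in CR 30 (median 15.06), with a change of -0.27 (limma adjusted p = 0.776), and HSPH1 changed by -0.08. HSPA5, the chaperone of the endoplasmic reticulum, ranged from 15.73 to 16.33 (median 15.87) and from 14.95 to 15.75 (median 15.63), with a change of -0.40 (limma adjusted p = 0.371). In its list of 19 endoplasmic reticulum chaperones, 16 had a lower mean and none was called (median -0.11). CIRBP, an RNA-binding protein induced by cold, changed by -0.24 (limma adjusted p = 0.836).

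Other genes set out by name also missed the test. FOS, an immediate early transcription factor, ranged from 11.00 to 13.54 in CR 24 (median 12.02) and from 10.12 to 11.59 in CR 30 (median 10.86), with a change of -1.31 ± 0.543 (limma adjusted p = 0.738). All 5 of its probes were lower, and 16 of the 24 immediate early genes had a lower mean (median -0.14). KDM1B, a histone demethylase, ranged from 8.43 to 8.97 (median 8.73) and from 8.87 to 9.19 (median 9.06), with a change of 0.35 ± 0.094 (limma adjusted p = 0.141).

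Several lists leaned one way without a call in them. Among the 11399 named genes, 6063 had a higher and 5336 a lower mean in CR 30. Of 31 interferon-stimulated genes, 30 had a higher mean in CR 30 (median 0.25), and IRF1, a transcription factor of that response, was the nearest to the test at 0.31 (limma adjusted p = 0.478). The list's mean level ranged from 9.86 to 10.27 in CR 24 and from 9.79 to 10.74 in CR 30. Of 20 fibroblast and matrix genes, 17 had a lower mean (median -0.28), COL1A1, a chain of collagen, changing by -0.72 (limma adjusted p = 0.859). Of 15 adipocyte genes, 14 had a lower mean (median -0.29), and of 20 skeletal muscle genes, 19 (median -0.19). All 4 mean levels overlapped between the groups. In the immune cell lists, 12 of 13 T and natural killer cell genes (median 0.12), 12 of 16 monocyte and macrophage genes (median 0.05) and all 9 MHC class II genes (median 0.14) had a higher mean in CR 30. The part of these marker lists in the fall of the cell cycle genes and of BPI was not tested.

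**Figure D4:**
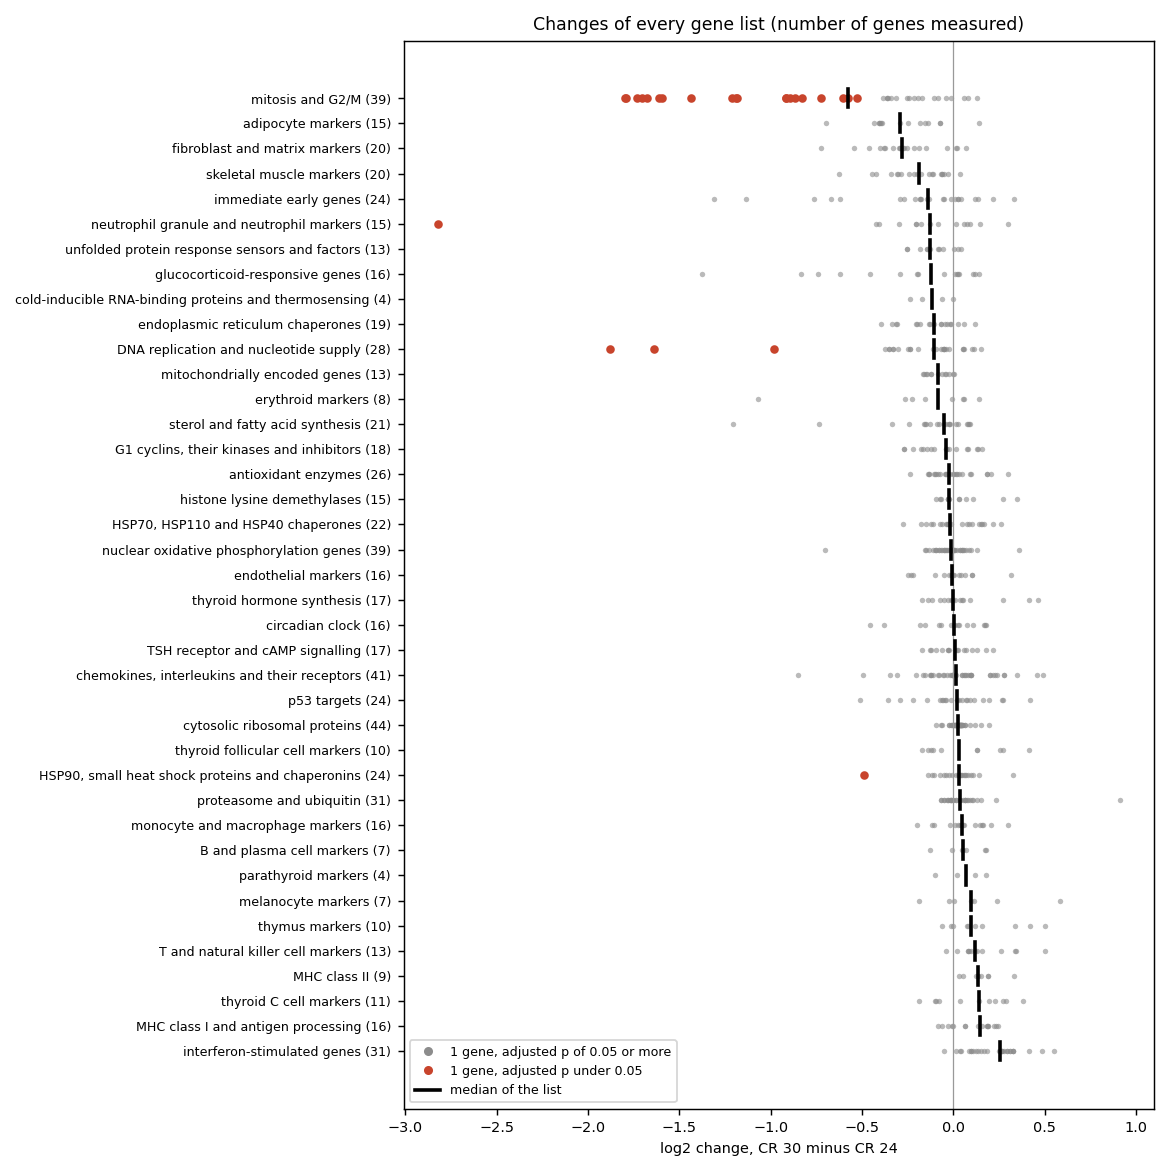
Log2 change (CR 30 minus CR 24, horizontal axis) of each measured gene in the 39 gene lists, ordered by the list's median (black bar), with the number of genes measured in brackets. Filled red points passed an adjusted p of 0.05 (limma): 20 in the mitosis list, 3 in DNA replication, and BPI and SERPINH1; the interferon-stimulated genes have the highest median, 0.25.

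The same probes were then read in the other breeds, whose pigs are not shared with CR. Of the 164 probes called lower in CR, 162 had a lower mean after heat in F1 and 163 in LW, and all 9 called higher had a higher mean in both. The median change of the 164 was -0.84 in CR, -0.70 in F1 and -0.35 in LW. The probes were chosen on their CR values, so the order of these medians is a description only. CDK1 changed by -1.66 in F1 (limma adjusted p = 0.00403) and by -0.87 in LW (limma adjusted p = 0.808). BPI changed by -1.98 in F1 (limma adjusted p = 0.111) and by -0.22 in LW (limma adjusted p of 1 after rounding).

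In F1, 174 probes (0.377%) were called, and 94 of them were also called in CR; that is 54.3% of the CR calls and 54.0% of the F1 calls. In LW no probe was called by limma (0%), and 1844 probes (4%) had an unadjusted p under 0.05. Tests of the difference between the heat responses called no probe for CR against LW (0%), where the smallest adjusted p was 1 and 1447 probes (3.14%) had an unadjusted p under 0.05. They called none for CR against F1 either (0%), where the smallest adjusted p was 0.853 and 2631 probes (5.71%) had an unadjusted p under 0.05. For BPI the change in CR minus that in LW was -2.60 ± 0.764 (SE, unadjusted p = 0.00174, limma adjusted p of 1). A larger fall in CR than in LW was thus not shown for any probe.

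**Figure D5:**
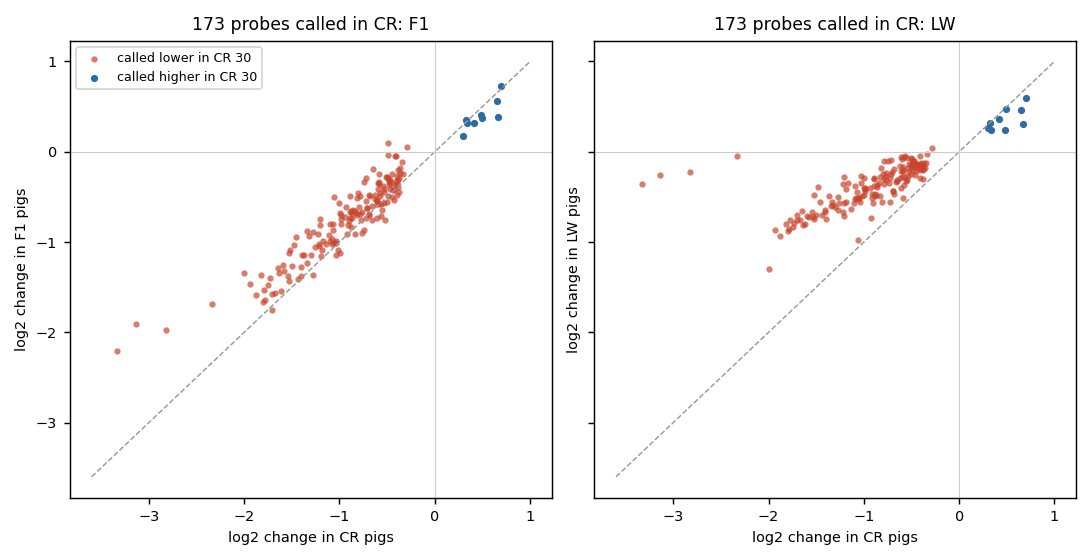
Log2 change after heat of the 173 probes called in CR, with the change in CR pigs on the horizontal axis and that in F1 (left) and LW pigs (right) on the vertical axis; the dashed line marks equal change. Of the 164 probes called lower (red), 162 lie below 0 in F1 and 163 in LW, and the 9 called higher (blue) lie above 0 in both.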

How the data were processed

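Thyroid RNA of 36 pigs was labelled with Cy3 and hybridised to 1-colour Agilent porcine arrays. The authors extracted spot intensity values with Agilent Feature Extraction 10.10.1.1 (submitters' processing notes), quantile normalised the median intensity and deposited log2 values for 46097 probes, which were used as given. The intensity files, as deposited, served for background flags, slides, probe sequences and alternatives. Group means were fitted to all 36 arrays with limma 3.58.1 (R 4.3.3), and p-values were adjusted over all probes by Benjamini-Hochberg, with a threshold of 0.05. The study's mixed model with pen, day of slaughter and parents was not used here. Symbols came from the files, updated through the reference tables. They named 23351 probes (11399 genes). Where a gene had several probes, the brightest stood for it in lists. Named genes were the 15 largest falls, the 10 largest rises, up to 4 per list and genes set by name. For the largest falls and rises, the called probe of a gene with the largest change was taken. The members and lists were chosen with earlier results of these data known. Pigs were numbered in accession order. The fit was tested on simulated data. The number of arrays limits the precision. Promoters were not analysed here.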

Additional observations from a re-analysis of the deposited data

Results flagged for a closer look

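In 7 of the 152 sets of 6 pigs examined (4.61%), for single probes and for mean levels of gene lists, 1 pig stood far from the other 5 by Dixon's criterion, and chance alone flags about 1 in 20 such sets. HSPA5 was 14.95 (log2) in CR 30 pig 3, with a group median of 15.63 and a highest value of 15.75. A_72_P252702, one of the probes called higher, was 6.98 in CR 30 pig 4, against a median of 7.33 and a highest value of 7.39. The mean level of the B and plasma cell list was 7.09 in CR 24 pig 3, with a median of 7.34 and a highest value of 7.41. CR 24 pig 2 was the highest of its group on 2 lists. Its mean level was 14.61 for endoplasmic reticulum chaperones, where the other pigs reached down to 14.20 and the median was 14.22, and 13.52 for nuclear oxidative phosphorylation genes, where the median was 13.29. The fibroblast and matrix list was 12.31 in CR 30 pig 6, with a median of 11.07 and a lowest value of 10.89. The skeletal muscle list was 9.02 in CR 24 pig 4, with a median of 8.38 and a lowest value of 8.32.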

How the results depend on the processing

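Log2 values remade from the scanner files differed from the deposited ones by 0.00556 at the median probe. The calls within CR numbered 167 to 189 under the other values, probe filters, slide and position terms, array weights and priors tried, and the tests against LW and F1 called no probe in any fit. The exception was the fit of the 12 CR arrays alone, with fewer samples to estimate the spread: 112 probes were called, 108 lower and 4 higher, and 0 neutrophil genes. There BPI had an adjusted p of 0.0658 in limma, TOP2A 0.0592, UBE2C just above 0.05, SPAG5 0.095, TCF19 0.13 and SERPINH1 0.57. SERPINH1 was also lost with Agilent's processed signal (0.0911), a position block (0.131) and array weights (0.0649), and KDM1B was called with normexp background correction (0.0369). With the processed signal, 6 DNA replication genes were called and the G1 cyclin median was -0.10. With slide as a fixed block, 16 probes were higher. As a random block, slide gave a correlation of 0.0848.

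Without each CR pig in turn, the calls numbered 127 to 195, of which 116 to 183 were lower and 5 to 15 higher. The higher calls numbered 5 without CR 24 pig 2 or pig 4 and 15 without CR 24 pig 3. Between 3 and 5 DNA replication genes were called, with 5 without CR 24 pig 3. HSPH1 changed by -0.149 to 0.0127, the latter without CR 30 pig 2. Within single slides some list medians moved by more than the spread between pigs. The HSP70, HSP110 and HSP40 median was 0.0673 within slide 1. Within slide 2 that of immediate early genes was 0.09 and that of endoplasmic reticulum chaperones 0.27. Within slide 3 the medians were -0.10 for G1 cyclins, -0.48 for immediate early genes, 0.0817 for glucocorticoid-responsive genes, -0.50 for endoplasmic reticulum chaperones, -0.40 for interferon-stimulated genes, 0.12 for adipocyte and -0.78 for neutrophil genes. Within slide 4 they were -0.96 for fibroblast and matrix and -0.89 for adipocyte genes. The causes of these differences were not tested. No analysis paired by litter was possible because the labels do not tie the pigs to their litters. The search of promoters for motifs was not run. Of the 46097 probes, 44721 were well above background in at least 5 of 6 arrays of a CR group, and folds of the dim rest are the least certain.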
